A study of Mus musculus with 13 samples.

Results

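Genomic imprinting silences 1 parental copy of a gene, and 10 genes known to be imprinted in the mouse were described here in excitatory cells of the claustrum region: Nnat, Blcap, Ndn, Snrpn, Peg3, Meg3, Dlk1, Impact, Plagl1 and Peg10. Nnat was chosen by its level, which was already known to differ between these cells, so that its values are a description and carry no test. The other 9 were listed by name as imprinted genes, to see whether Nnat changed by itself or with the group. All 10 were among the 23427 genes in the count tables, Peg10 in that of the projection mice alone. Cells with at least 1 count of Snap25, a gene of neurons, and of Slc17a7, which encodes a glutamate transporter of excitatory neurons, were kept, which left 1011 of 1112 harvested cells.

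Cells were picked by hand from the microdissected claustrum of 4 mature male C57BL/6 mice. In 1 mouse, a retrograde virus carrying GFP had been injected into the anterior cingulate cortex to outline the claustrum, and 238 kept cells were picked without regard to GFP (the blindly sampled mouse). The other 3, projection mice 1, 2 and 3, had retrobeads in the retrosplenial cortex (RSC) and the lateral entorhinal cortex (LEC), and gave 224, 220 and 329 kept cells that were labeled from RSC or LEC or were unlabeled. A label names the injected area in which a cell took up tracer, and an unlabeled cell may also project there.

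Nnat encodes neuronatin, a small membrane proteolipid of the endoplasmic reticulum in neurons and hormone-secreting cells. Its gene lies within an intron of Blcap, which encodes a small protein first found in bladder cancer and whose allelic use in brain depends on the transcript. Of the others, Ndn (necdin) and Peg3 encode nuclear proteins linked to growth arrest and cell survival, Snrpn a splicing protein of neurons, Plagl1 a zinc finger transcription factor, Impact a regulator of translation, and Dlk1 a membrane ligand related to those of Notch. Meg3 is a long noncoding RNA of the same cluster as Dlk1, and Peg10 derives from a retrotransposon. Counts in an inbred strain do not separate the parental copies, so the imprint itself was not measured.

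The promoters of Nnat, of its host gene Blcap and of Ndn are shown, since Blcap and Ndn passed the test as lower where Nnat was lower, both between cells high and low in Synpr, a gene of the claustrum core, and between projection labels. Each runs from 250 bases before to 50 bases after the annotated start in RefSeq (GRCm38.p6, chr2:157559828-157560127 on the plus strand for Nnat, chr2:157566312-157566611 on the minus strand for Blcap, and chr7:62348027-62348326 on the plus strand for Ndn), 5′ to 3′, with the dinucleotide CG in capitals.
Nnat: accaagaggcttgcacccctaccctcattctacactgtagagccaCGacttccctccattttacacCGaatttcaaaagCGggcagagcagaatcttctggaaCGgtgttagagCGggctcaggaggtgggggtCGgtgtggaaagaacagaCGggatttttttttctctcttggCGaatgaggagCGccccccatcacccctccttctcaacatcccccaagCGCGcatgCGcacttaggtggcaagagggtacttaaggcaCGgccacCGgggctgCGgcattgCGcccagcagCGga
Blcap: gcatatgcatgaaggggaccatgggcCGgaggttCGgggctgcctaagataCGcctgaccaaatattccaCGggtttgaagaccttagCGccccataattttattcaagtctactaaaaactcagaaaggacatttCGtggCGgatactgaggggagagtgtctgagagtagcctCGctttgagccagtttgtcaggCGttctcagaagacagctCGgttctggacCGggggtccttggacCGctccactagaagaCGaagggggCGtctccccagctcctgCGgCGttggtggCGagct
Ndn: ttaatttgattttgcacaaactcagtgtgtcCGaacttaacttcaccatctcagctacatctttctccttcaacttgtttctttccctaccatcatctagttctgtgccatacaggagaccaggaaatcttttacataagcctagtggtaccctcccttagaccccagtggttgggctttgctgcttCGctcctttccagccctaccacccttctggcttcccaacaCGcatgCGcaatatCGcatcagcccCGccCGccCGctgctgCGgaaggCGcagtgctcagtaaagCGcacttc
The promoters of Nnat and Blcap each held 17 CG, a number that 31.4% of 32851 RefSeq promoters of this length reached, and that of Ndn held 11, reached by 41.4%, against a median of 7. CG reads the same on both strands. No methylation was measured here, so the count describes these sequences. In GENCODE vM21, Nnat lay whole inside 1 intron of 3 of the 6 Blcap transcripts, on the opposite strand, and no exon of either overlapped an exon of the other, so that a count in an exon of one is not a count in an exon of the other.

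Median counts per cell were 26023 in the blindly sampled mouse and 138535 to 154262 in the projection mice. For a cell of median depth, 1 count was worth 38.4 CPM (counts scaled to a total of 1000000 per cell) in the former and 6.48 to 7.22 in the latter. The blindly sampled mouse thus differed from the others in depth, in how its cells were picked, in its tracer and in its count table, and these cannot be told apart. The methods state 2 flow cells that differed in read length, without naming the plates on each, so flow cell may differ between these mice too. Among the projection mice, each label of a mouse was on a plate of its own, except on plate 12, which held 44 LEC and 34 RSC cells of projection mouse 3. Of 368 cell barcodes, 343 occurred on more than 1 plate, as the plates used a common set. Neurod6 was present in every sum, as was Slc17a7, which the choice of cells required. Slc17a6, the other glutamatergic marker listed, was at 0 in the cells of the blindly sampled mouse that were low in Synpr. The 6 measured inhibitory markers (of 7 listed) together reached at most 199 CPM.

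Cells were split by Synpr, a synaptic vesicle gene of the claustrum core, at 200 CPM, and by Slc30a3, a vesicular zinc transporter gene of the shell, at 20 CPM. The first limit gave 438 Synpr-high and 573 Synpr-low cells. The cells on either side of it were at 209 and 200 CPM (199.9), and 21 cells lay between 100 and 400. The second gave 379 Slc30a3-high cells, with 23.1 and 19.7 CPM on either side, and 35 cells between 10 and 50. In the blindly sampled mouse a single count of Slc30a3 usually passed this limit. The splits gave 3 classes, Synpr high (438 cells), Slc30a3 high among Synpr-low cells (359), and low in both (double low, 214). Counts were summed over the cells of a mouse and class, so that n is the number of mice, and levels are CPM after TMM scaling, which adjusts for the composition of each sum. Groups are said not to overlap where every value of a group lies beyond every value of the other. The share of all genes for which this holds was not counted, so it describes the values and adds nothing to a test.

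Nnat was low in Synpr-high cells and high in the others in all 4 mice. In Synpr-high cells Nnat was at 28.4, 42.9, 82.2 and 54.2 CPM in the blindly sampled mouse and projection mice 1, 2 and 3. In Synpr-low cells of the same mice it was at 295.6, 572, 960 and 1287 CPM. The groups did not overlap, and within a mouse the ratio was 10.4, 13.4, 11.7 and 23.8. The fitted difference, Synpr high minus low, was -3.90 on the log2 scale (SE 0.47). Plates held both classes, so the split could be read within them: of 12 plates with at least 5 cells of each class, Nnat was lower in the Synpr-high cells in 12, and the ratio of low to high ranged from 5.35 to 48.3 with a median of 12.6.

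Within the Synpr-low cells, the summed level of Nnat had no consistent direction with Slc30a3. Slc30a3-high cells had 392, 656, 930 and 1284 CPM of Nnat and double-low cells 139, 495, 1089 and 1325, again in the order blindly sampled mouse and projection mice 1, 2 and 3. The former were higher in 2 mice and lower in 2, and the fitted difference was 0.10 (SE 0.53), with an approximate 95% interval from -0.95 to 1.14. From the mean log2 CPM per cell, in which cells at 0 weigh as much as others, the difference was 1.54. Between all Slc30a3-high and all Slc30a3-low cells Nnat differed by 1.63 (SE 0.51), with 418 Synpr-high cells among the 632 that were low in Slc30a3.

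**Figure D1:**
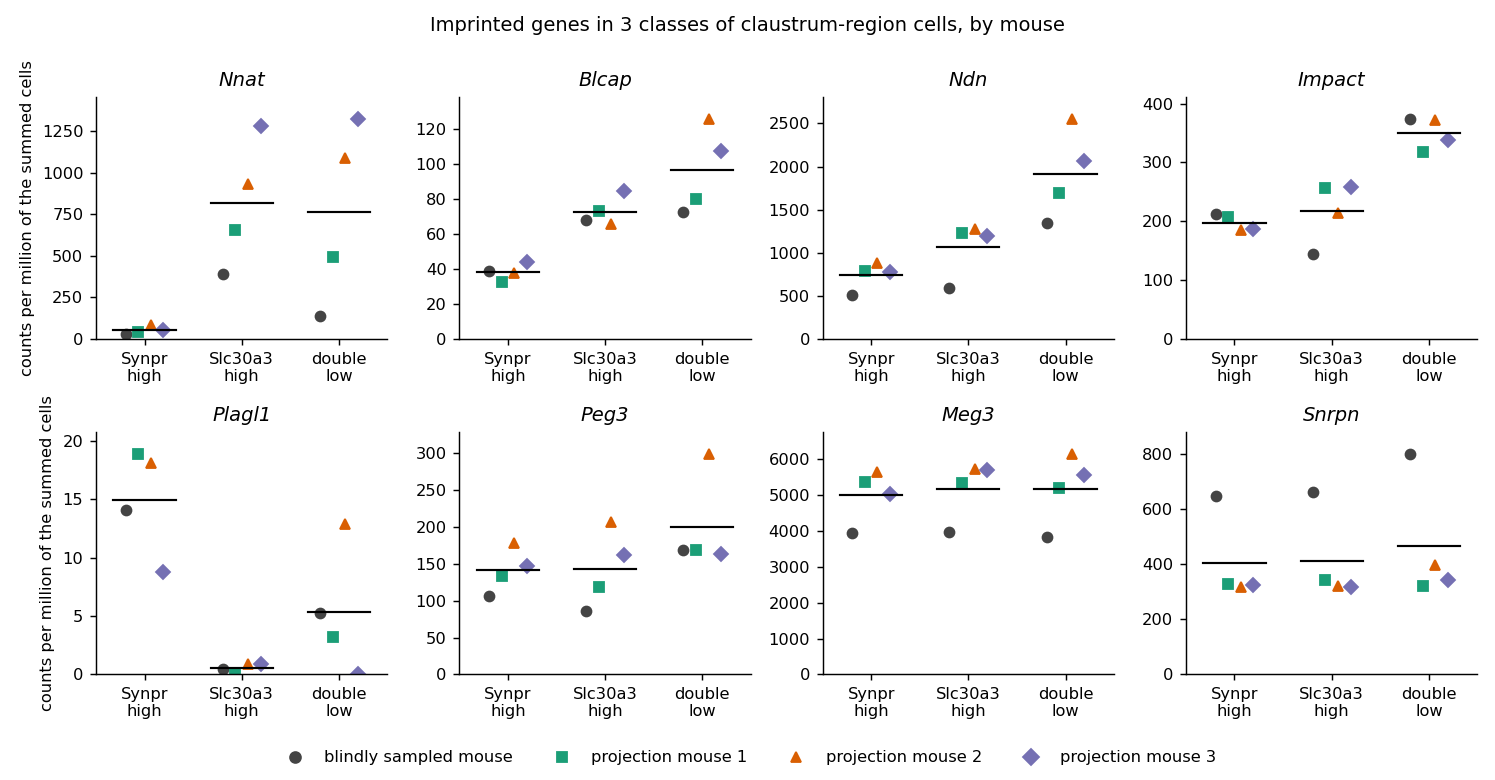
Levels of 8 imprinted genes (y axes, CPM of summed cells, each from 0) in the 3 classes, with 1 point per mouse and a line at the mean of 4 mice. Nnat lies at 27.9 to 83.0 CPM in Synpr-high cells and at 139 CPM or more elsewhere, Blcap, Ndn and Impact have their highest means in double-low cells, and Plagl1 is highest in Synpr-high cells.

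Single cells showed how the sums arose. Of the Synpr-high cells, 214 of 438 had a count of Nnat, and the median cell was at 0, 5.37, 11.9 and 7.48 CPM in the blindly sampled mouse and projection mice 1, 2 and 3. Of the Slc30a3-high cells 335 of 359 had one, with medians of 365, 720, 741 and 1319 CPM. Of the double-low cells 170 of 214 had one, and their medians ran from 0 in the blindly sampled mouse to 1096 CPM in projection mouse 3. The classes overlapped cell by cell, since single Synpr-high cells reached 648 to 1030 CPM. When each cell was thinned to 20000 counts, which left out 84 shallower cells, a count of Nnat was found in 11.8% to 37.6% of Synpr-high cells, 70.4% to 98.9% of Slc30a3-high cells and 28.1% to 97.4% of double-low cells of a mouse. No class of cells known to lack Nnat was kept to set a background share.

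**Figure D2:**
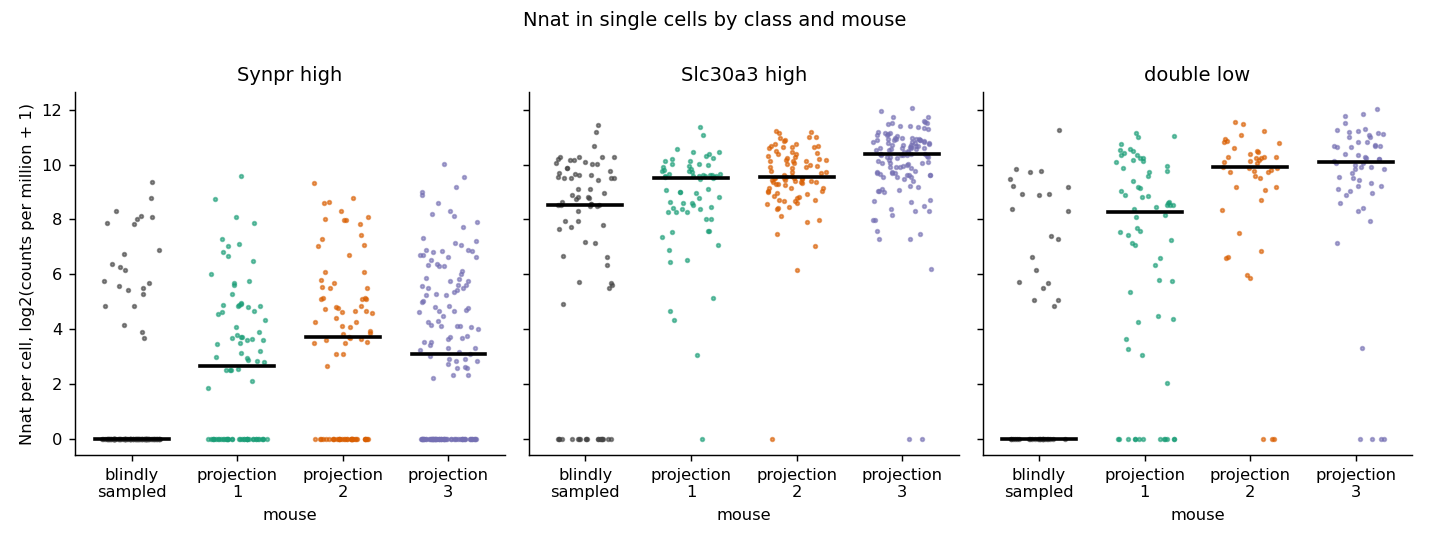
Nnat in each cell, as log2(CPM + 1) (y axis), by mouse (x axis) in the 3 classes, with a line at the median. Most cells at 0 are Synpr-high cells, and the median of the double-low cells is 0 in the blindly sampled mouse and 1096 CPM in projection mouse 3.

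The next question was whether the other imprinted genes followed Nnat. Of the 9 others, 7 passed the filter on low counts in the Synpr split, and 4 were called at an adjusted p under 0.05 (edgeR's quasi-likelihood test, Benjamini-Hochberg adjustment over all genes tested): Blcap, Ndn and Impact were lower in Synpr-high cells, like Nnat, and Plagl1 was higher. Of 13641 genes tested, 8.82% were called, 4.48% as higher and 4.34% as lower. The median difference of the 7 was -0.22 on the log2 scale, against -0.000598 for all genes tested. Peg3, Meg3 and Snrpn were not called.

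Blcap, the host gene of Nnat, was at 39.58, 32.04, 37.26 and 43.17 CPM in the Synpr-high cells of the blindly sampled mouse and projection mice 1, 2 and 3. In Synpr-low cells it was at 70.7, 74.9, 81.3 and 89.9 CPM. The groups did not overlap, and Blcap fell by 1.06 on the log2 scale (SE 0.15, adjusted p = 0.00143 with edgeR). Its difference was smaller than that of Nnat in every mouse, at 1.78- to 2.34-fold, and it was lower in the Synpr-high cells of 12 of 12 plates. Blcap stayed past the threshold under every alternative run for this split, with adjusted p between 6.24e-09 and 0.0222.

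Ndn, the necdin gene, was at 517, 773, 878 and 762 CPM in Synpr-high cells and at 901, 1423, 1617 and 1409 CPM in Synpr-low cells. The ratio was close among mice, from 1.74 to 1.85, and the groups did not overlap. Ndn fell by 0.87 in Synpr-high cells on the log2 scale (SE 0.20, adjusted p = 0.0205 with edgeR), and was lower in 12 of 12 plates. Without projection mouse 1, 2 or 3 its adjusted p was 0.121, 0.0769 and 0.132, in a range of 2.58e-05 to 0.132 over all alternatives.

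Impact, the regulator of translation, had a smaller difference. Its level was 215, 204, 183 and 185 CPM in Synpr-high and 239, 280, 255 and 277 CPM in Synpr-low cells. The groups did not overlap, and Impact fell by 0.42 (SE 0.10, adjusted p = 0.0301 with edgeR), with lower values in 12 of 12 plates. The call was lost without projection mouse 1, 2 or 3 (adjusted p = 0.166, 0.164 and 0.244), and also with thinned cells (0.0584), with no filter on low counts (0.0586) and with the mean log2 CPM per cell (0.188). Its adjusted p reached down to 0.00448 in the other alternatives.

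Plagl1 went the other way. Its level was 14.3, 18.6, 18.0 and 8.64 CPM in Synpr-high cells and 2.39, 1.45, 4.29 and 0.68 CPM in Synpr-low cells of the blindly sampled mouse and projection mice 1, 2 and 3. The groups did not overlap, and Plagl1 rose by 2.77 (SE 0.55, adjusted p = 0.011 with edgeR). It was higher in the Synpr-high cells of 12 of 12 plates. With no filter on low counts the call held (adjusted p = 0.00695). Few cells carried it: 69 of 1011 cells had a count, and 57 of these were Synpr-high cells, which held 849 of the 997 counts. Without projection mouse 1 its adjusted p was 0.0972, and over all alternatives it ranged from 5.52e-06 to 0.0972.

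Peg3, Meg3 and Snrpn had differences of -0.22, -0.05 and -0.08 on the log2 scale (SE 0.21, 0.13 and 0.32, adjusted p = 0.69, 0.93 and 0.954 with edgeR). Peg3 and Snrpn were each lower in Synpr-high cells in 4 of 4 mice and in 10 of 12 plates. Meg3 was lower in 2 of 4 mice and in 9 of 12 plates. The approximate 95% interval of the difference ran from -0.63 to 0.20 for Peg3, from -0.31 to 0.21 for Meg3 and from -0.72 to 0.55 for Snrpn. These intervals are from the fit without mouse as a block. A change of the size of that of Nnat, which was chosen by its level, lay outside each. A fall of the size of that of Impact (-0.42) lay inside those of Peg3 and Snrpn, so the test without the block does not settle whether these 2 moved. Over the alternatives run, which included the block, the difference was -0.27 to 0.10 for Peg3 and -0.10 to -0.04 for Snrpn. Peg3, a zinc finger gene, was at 108 to 177 CPM in Synpr-high and at 120 to 230 CPM in Synpr-low cells. Meg3 was at 4022 to 5587 CPM and at 3965 to 5771 CPM. Snrpn was at 657 and 726 CPM in the blindly sampled mouse and at 316 to 337 CPM in the Synpr-high and Synpr-low cells of the projection mice, so its SE holds a difference between mice. Snrpn shares exons with Snurf and Meg3 with small RNAs on the same strand, so their counts may be split with, or include, those of these genes.

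Dlk1 and Peg10 did not pass the filter in the Synpr split. Dlk1 had 280 counts in 23 of 1011 cells, of which 15 were Slc30a3-high cells with 224 counts and the highest single cell had 49. Of the counts in Synpr-low cells, 136 were from projection mouse 2 and 136 from projection mouse 3. Peg10 had 32 counts in 14 cells, with 16 in 1 double-low cell, and its level in a sum did not exceed 0.88 CPM in this split. No difference of Peg10 was detectable at this depth.

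**Figure D3:**
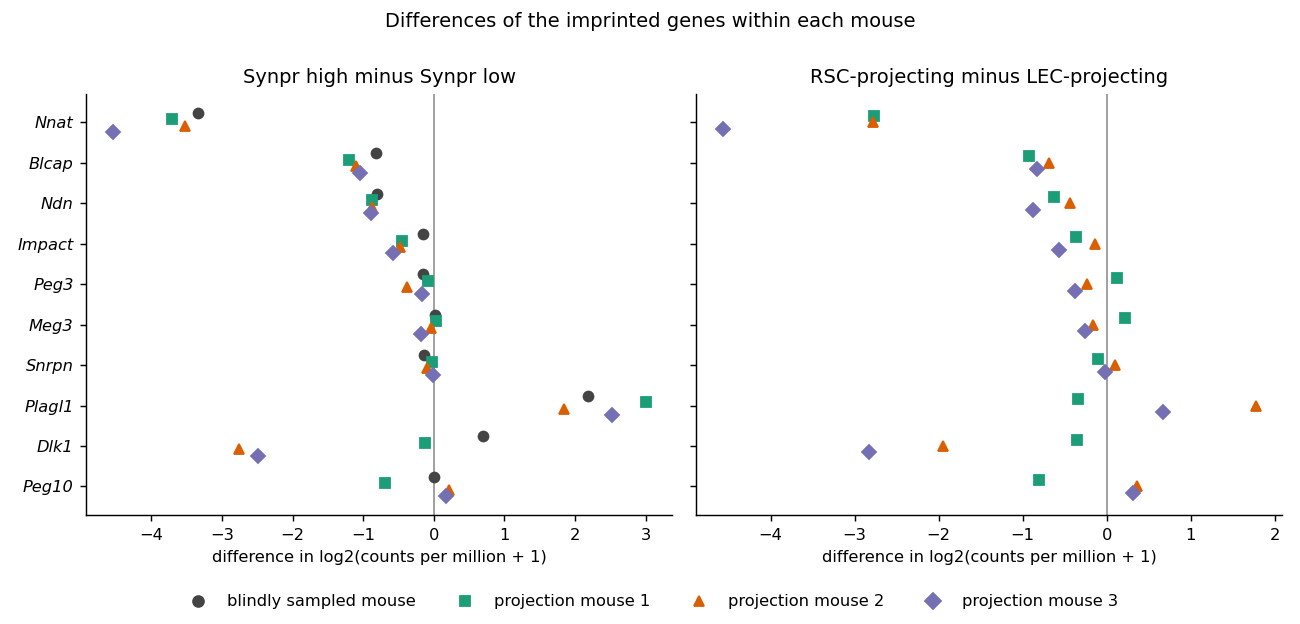
Differences in log2(CPM + 1) (x axis) of the 10 imprinted genes (y axis) within each mouse, for Synpr high minus low on the left and RSC minus LEC on the right. Points left of the line at 0 are lower in Synpr-high or RSC cells: on the left all 4 mice are to the left for Nnat, Blcap, Ndn and Impact and to the right for Plagl1. Peg3, Meg3 and Snrpn lie close to the line there, with Peg3 and Snrpn to its left in all 4 mice.

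With the cells in 3 classes, Blcap, Ndn and Impact each had their highest mean level in double-low cells and their lowest in Synpr-high cells. Against Synpr-high cells, 3 of 8 tested members other than Nnat were called in double-low cells, each as higher (8.97% of 13104 genes were called, 4.74% as higher). Blcap rose by 1.34 (SE 0.19, adjusted p = 0.000553), Ndn by 1.37 (SE 0.25, adjusted p = 0.00317) and Impact by 0.82 (SE 0.16, adjusted p = 0.00528), all with edgeR. None of these groups overlapped. With mouse as a block Peg3 was called too, with a difference of 0.48 (adjusted p = 0.0388), and from the mean log2 CPM per cell Plagl1 was, as lower (0.000853). The call of Ndn was lost without projection mouse 3 (adjusted p = 0.0508), and that of Impact without projection mouse 2 or 3 (0.083 and 0.0568). The median of the 8 was 0.66 against -0.00955 for all genes.

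In Slc30a3-high against Synpr-high cells, 2 of 8 were called, 1 in each direction (6.71% of 13104 genes, 3.43% as higher and 3.28% as lower). Blcap rose by 0.93 (SE 0.19, adjusted p = 0.00827) and Plagl1 fell by 4.58 (SE 1.11, adjusted p = 0.0208) with edgeR. Plagl1 had 34 counts in 6 of 359 Slc30a3-high cells and passed the filter on low counts through the Synpr-high sums. With no filter it was still called (adjusted p = 0.0125 with edgeR). Impact was not called, with a difference of 0.14 (SE 0.16, adjusted p = 0.795), and Ndn was not called either, at 0.54 (SE 0.25, adjusted p = 0.281). With mouse as a block Ndn was called (0.51, adjusted p = 0.00471), and without the blindly sampled mouse its adjusted p was 0.0139. The call of Blcap was lost without projection mouse 1 or 3 (0.0795 and 0.0744), and that of Plagl1 without the blindly sampled mouse or projection mouse 1 or 2 (0.0747, 0.139 and 0.112). Dlk1, with its few cells, was called without the blindly sampled mouse (0.0412) and by DESeq2 (0.0297). It had 5 counts in 4 of 438 Synpr-high cells and passed the filter on low counts through the other sums. These calls of Dlk1 are thus not independent of that filter, and with no filter it was not called (adjusted p = 0.164 with edgeR). The 2 comparisons share their Synpr-high sums.

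Blcap, Ndn, Impact and Peg3 were higher in double-low than in Slc30a3-high cells in 4 of 4 mice, and Nnat in 2 of 4. Ndn was at 1346, 1697, 2555 and 2063 CPM there, against 588, 1231, 1277 and 1190 in Slc30a3-high cells of the blindly sampled mouse and projection mice 1, 2 and 3. Impact was at 374, 318, 371 and 337 CPM there, against 144, 257, 214 and 258. Neither of these genes overlapped between the classes, while Blcap and Peg3 did, with differences of -0.41 and -0.48 (SE 0.19 and 0.27, adjusted p = 0.486 and 0.618 with edgeR). In the test of Slc30a3 within Synpr-low cells, however, 0 of 8 members were called with edgeR, where 0.778% of 13104 genes were. With edgeR an unadjusted p under 0.05 was found for 4 of the 8 members and for 1321 of the 13104 genes. Ndn had a difference of -0.84 (SE 0.25, adjusted p = 0.173) and Impact of -0.68 (SE 0.16, adjusted p = 0.0784). With mouse as a block they were called, Ndn at -0.86 (adjusted p = 0.00134) and Impact at -0.69 (adjusted p = 0.0455). DESeq2 called 3, namely Ndn (0.0235), Impact (0.00493) and Plagl1 (0.039), limma on the mean log2 CPM per cell called 0, and without the blindly sampled mouse Ndn was called (0.0238).

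The double-low class also had the highest level of deep cortical layer 6 markers. The summed level of the 8 listed markers was 1105 to 3129 CPM in double-low, 328 to 555 in Slc30a3-high and 25.7 to 63.9 in Synpr-high cells, with none of the 8 at 0 in double-low cells of any mouse. The 5 shell-like markers, which include Slc30a3 itself, summed to 486 to 1567 CPM in double-low, 1477 to 2208 in Slc30a3-high and 279 to 441 in Synpr-high cells. The double-low class was set by low values of Synpr and Slc30a3 and is not named as a cell type. In a sum, fewer cells of a type and less RNA per cell cannot be told apart. The 5 oligodendrocyte markers summed to 25.4 to 337 CPM in Synpr-high, 63.5 to 1052 in Slc30a3-high and 25.7 to 66.9 in double-low cells, with Mog and Mag at 0 in 5 of these 12 sums and 1 of the pair at 0 in 2 more. The part of any of these markers in the differences was not tested.

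Between all Slc30a3-high and all Slc30a3-low cells, Plagl1 was the 1 of 8 members called (3.65% of 13495 genes, 2.36% as lower). It was at 0.80, 0, 0.88 and 0.87 CPM in Slc30a3-high cells and at 11.97, 13.9, 16.97 and 7.05 CPM in Slc30a3-low cells of the blindly sampled mouse and projection mice 1, 2 and 3. The groups did not overlap. The fitted difference was -4.28 (SE 0.73, adjusted p = 0.0102 with edgeR). The call was lost without projection mouse 2 or 3 (adjusted p = 0.0953 and 0.0707). Plagl1 passed the filter on low counts through the Slc30a3-low sums, so its call is not independent of that filter. With no filter the call held (adjusted p = 0.005 with edgeR). Blcap had 0.40 (adjusted p = 0.27), Dlk1 2.37 (adjusted p = 0.451), and Ndn, Impact, Peg3, Meg3 and Snrpn lay between -0.17 and 0.09.

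The projection labels gave a further reading of the same genes. RSC cells were 80.0% to 92.9% Synpr high, LEC cells 12.3% to 22.5% and unlabeled cells 22.5% to 32.6% in the 3 projection mice, so the label and the Synpr split largely divide the same cells. Nnat was lowest in RSC cells, at 81.1, 145 and 56.6 CPM in projection mice 1, 2 and 3. Unlabeled cells had 277, 600 and 556 CPM and LEC cells 560, 1000 and 1364 CPM. This order held in each mouse. RSC cells overlapped neither of the others, whereas the ranges of unlabeled and LEC cells overlapped. The fitted differences of Nnat were -3.38 (SE 0.43) for RSC minus LEC, -2.36 (SE 0.41) for RSC minus unlabeled and 1.03 (SE 0.39) for LEC minus unlabeled.

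Between RSC and LEC cells, 2 of 8 tested members other than Nnat were called, both as lower in RSC cells (3.95% of 13976 genes, 2.06% as lower). Blcap was at 36.5, 45.0 and 46.5 CPM in RSC and at 70.3, 73.1 and 83.1 CPM in LEC cells, and fell by 0.83 (SE 0.17, adjusted p = 0.0224 with edgeR). Ndn was at 806, 998 and 751 CPM against 1242, 1348 and 1383, and fell by 0.64 (SE 0.12, adjusted p = 0.0164 with edgeR). Neither gene overlapped between the labels. Both calls were lost when any 1 of the 3 mice was left out, with adjusted p of 0.0912, 0.169 and 0.236 for Blcap and 0.105, 0.0505 and 0.18 for Ndn without projection mouse 1, 2 and 3. That of Blcap was also lost without plate 12 (0.0552). Both genes kept their sign whichever mouse was left out.

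Markers of other cell types moved with the labels. The 8 deep cortical layer 6 markers summed to 33.9 to 176 CPM in RSC, 327 to 366 in LEC and 530 to 1269 in unlabeled cells, with 3 of the 8 at 0 in RSC cells of projection mouse 3. The 6 measured inhibitory markers summed to 6.80 to 199 CPM in RSC, 0.25 to 0.96 in LEC and 0.75 to 63.4 in unlabeled cells, with Gad1 and Gad2 at 0 in LEC cells of all 3 mice. Without cells that had counts of both Gad1 and Gad2, Blcap and Ndn were still called between RSC and LEC cells (adjusted p = 0.0175 and 0.0167 with edgeR). The part of the layer 6 and inhibitory markers in the differences was not tested.

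Impact was lower in RSC cells of all 3 mice, at 187 to 219 against 241 to 278 CPM, and was not called (-0.36, SE 0.11, adjusted p = 0.0996 with edgeR, 0.0379 with DESeq2). Dlk1 had 2 counts in all RSC and 182 in all LEC cells, 136 of them in projection mouse 3, and was not called (adjusted p = 0.22 with edgeR, 0.0313 with DESeq2). It passed the filter on low counts through sums other than the RSC ones, so the DESeq2 value is not independent of that filter. With no filter its adjusted p was 0.168 with edgeR. Plagl1 was higher in RSC cells in 2 mice and lower in 1 (0.80, SE 0.59, adjusted p = 0.59). Peg3, Meg3 and Snrpn had differences of -0.18, -0.07 and -0.01. On plate 12, where both labels of projection mouse 3 shared a plate, Nnat was at 53.0 CPM in RSC and 969 in LEC cells, Blcap at 32.3 and 59.6, Ndn at 636 and 1305, and Impact at 176 and 210. Outside that plate, label and plate cannot be told apart.

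**Figure D4:**
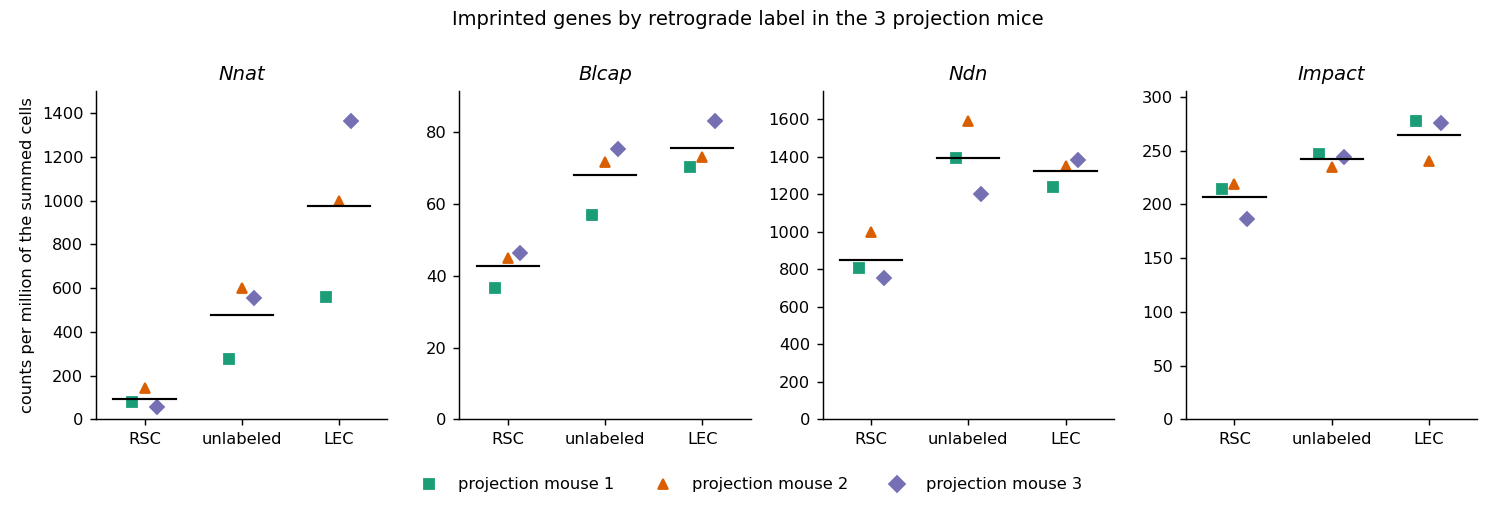
Levels of Nnat, Blcap, Ndn and Impact (y axes, CPM of summed cells, each from 0) in RSC, unlabeled and LEC cells, with 1 point per projection mouse and a line at the mean of 3 mice. RSC cells are lowest for all 4 genes in every mouse. Ndn, unlike Nnat, is about as high in unlabeled cells (1201 to 1591 CPM) as in LEC cells (1242 to 1383 CPM).

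Against unlabeled cells, RSC cells had 1 of 8 members called, as lower (1.63% of 13976 genes, 0.93% as lower). This was Ndn, which fell by 0.71 (SE 0.12, adjusted p = 0.0207 with edgeR) from 1392, 1591 and 1201 CPM in unlabeled cells. Its call was lost without projection mouse 1, 2 or 3 (0.156, 0.1 and 0.093). Blcap had a difference of -0.68 (SE 0.17, adjusted p = 0.0816) and was called by DESeq2 (0.0134) and from the mean log2 CPM per cell (0.00748). For LEC minus unlabeled cells, 0 of 8 members and 0 of 13976 genes (0%) were called with edgeR, where 0 members and 1079 genes had an unadjusted p under 0.05, DESeq2 called 114 genes and limma on the mean log2 CPM per cell 160, each with 0 of these members. Blcap differed by 0.15, Ndn by -0.07 and Impact by 0.13.

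Label and Synpr class were then combined. In Synpr-low cells Nnat was at 285, 598 and 411 CPM in RSC and at 782, 1166 and 1581 CPM in LEC cells of projection mice 1, 2 and 3, a difference of -1.45 (SE 0.52) with no overlap. In Synpr-high cells it was at 53.1, 19.9 and 35.1 CPM in RSC and at 28.1, 178 and 133 CPM in LEC cells, a difference of -1.62 (SE 0.53), with 1 mouse in the other direction. Within either class the difference was thus smaller than the -3.38 of all cells.

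Blcap in Synpr-low cells was at 44.7, 66.9 and 42.4 CPM in RSC and at 88.7, 80.3 and 93.2 CPM in LEC cells, a difference of -0.77 (SE 0.30, adjusted p = 0.33 with edgeR). In Synpr-high cells it was at 35.6, 38.4 and 46.4 CPM in RSC and at 25.6, 36.7 and 25.4 CPM in LEC cells, a difference of 0.46 (SE 0.29, adjusted p = 1). The difference between these differences was 1.23 (SE 0.42) and was not called (adjusted p = 0.418). Ndn had -0.23 and -0.18 in the 2 classes, with adjusted p of 0.716 and 1.

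Members called within a class were 0 of 7 in Synpr-low cells and 0 of 7 in Synpr-high cells. In the former edgeR called 0.193% of 12410 genes, and 2 members and 1414 genes had an unadjusted p under 0.05. In the latter edgeR called 0 of 12410 genes and DESeq2 16, and with edgeR 0 members and 508 genes had an unadjusted p under 0.05. DESeq2 called 0 members in either class. Of the differences between classes, 0 of 7 members and 0.0645% of genes were called with edgeR, and DESeq2 called 0 members. With edgeR 2 members and 1031 of 12410 genes had an unadjusted p under 0.05. Plagl1 had 0 counts in the 34 Synpr-low RSC cells, which by counting error alone allows up to 8.82% of cells with a count over the 3 mice together and does not limit the share that express it, and 86 counts in 5 of the 241 Synpr-low LEC cells. The Synpr-low RSC cells were 12, 14 and 8 per mouse, and the Synpr-high LEC cells 18, 11 and 16.

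**Figure D5:**
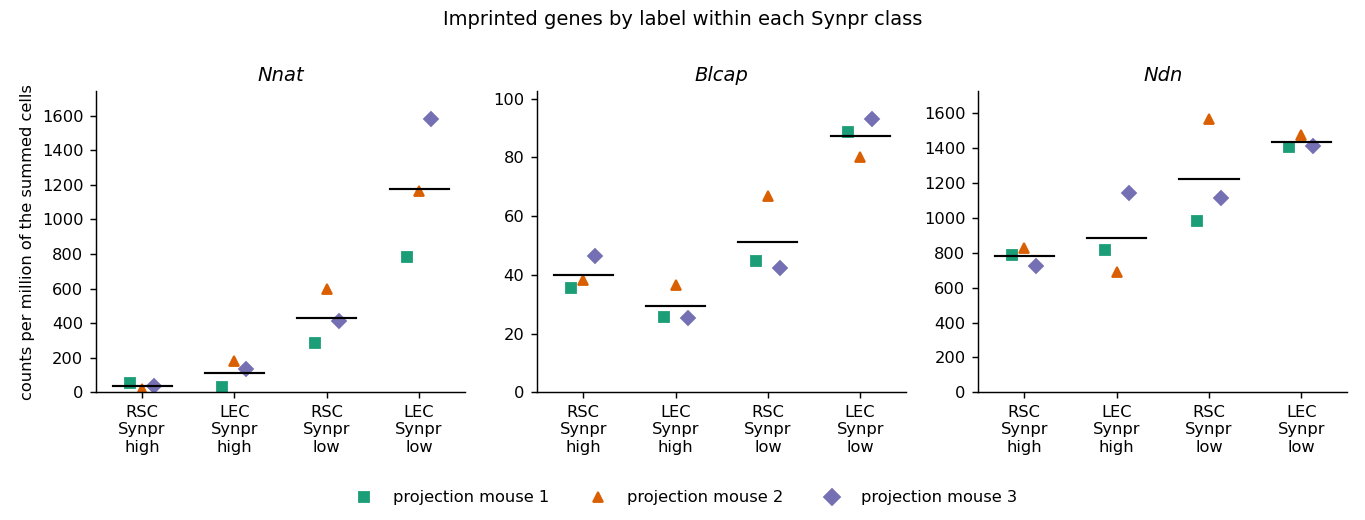
Levels of Nnat, Blcap and Ndn (y axes, CPM of summed cells, each from 0) in RSC and LEC cells of each Synpr class, with 1 point per projection mouse and a line at the mean. Synpr-low LEC cells are highest for Nnat (782 to 1581 CPM) and Blcap (80.3 to 93.2 CPM), and RSC and LEC points of Ndn overlap within both classes.

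Over the 12 sums of 4 mice and 3 classes, the genes whose log2 level followed that of Nnat most closely, of 13103 others, were Col6a1 (r = 0.98), Bmp3 (0.98), Esr1 (0.97), Col23a1 (0.97) and Sema3c (0.97), by Pearson's r. None of these 5 is among the imprinted genes listed here. Among the members, Blcap had r = 0.89 and rank 119, Ndn r = 0.73 and rank 618, Meg3 r = 0.49, Impact 0.44, Peg3 0.40, Snrpn -0.29 and Plagl1 -0.74 with rank 12518. Dlk1 had r = 0.68, from the few cells named above. The 12 sums share mice, plates and depth, so that r is a description.

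Within Synpr-low cells of 1 mouse, Nnat and Blcap were weakly related from cell to cell, with Pearson's r of 0.14, 0.30, 0.31 and 0.29 in the blindly sampled mouse and projection mice 1, 2 and 3 (125, 136, 132 and 180 cells), and Spearman's rho of 0.12, 0.31, 0.20 and 0.31. For Slc30a3 r with Nnat was 0.26, 0.31, 0.10 and 0.11 in the same order, and rho was 0.17, 0.21, -0.11 and -0.01. For Ndn r was -0.03, 0.05, 0.33 and 0.30. For Snrpn it ran from -0.22 to 0.47, and the total count of a cell had r of -0.31 to 0.47 with Nnat in the same mice. These values describe sparse counts that share depth.

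A wider list of 50 other imprinted genes, 46 of them in the tables, was read in the same fits. The list is from general knowledge of imprinting, and whether these genes are imprinted in these cells was not measured. In the Synpr split 5 of 28 tested were called, 2 as higher and 3 as lower, where 8.82% of all genes were, 4.48% as higher and 4.34% as lower. Nap1l5, a retrogene of a nucleosome assembly protein family, fell by 1.03 (SE 0.14, adjusted p = 0.00126) and Cd81, a tetraspanin gene, by 0.52 (adjusted p = 0.0145). Gnas, the gene of a stimulatory G protein subunit, rose by 0.39 (adjusted p = 0.0344), and Sfmbt2, a Polycomb group gene, by 5.56 (adjusted p = 0.000454) from 0.05 to 0.53 CPM in Synpr-low to 6.86 to 21.7 CPM in Synpr-high cells. Dcn, which encodes the matrix proteoglycan decorin, fell by 7.49 (adjusted p = 0.00256), from 2.39 to 75.1 CPM in Synpr-low cells to 0 to 0.32 CPM. All values are from edgeR, and the median of the 28 was -0.10. Nap1l5, Sfmbt2 and Dcn stayed past the threshold in every alternative run, while Cd81 and Gnas were lost without projection mouse 1, 2 or 3 (adjusted p of 0.0791, 0.0869 and 0.111, and of 0.151, 0.0974 and 0.177) and from the mean log2 CPM per cell with limma (0.0647 and 0.0841). Of 1011 cells, 83 had a count of Sfmbt2 and 100 had a count of Dcn. Both genes were near 0 in the class where they were lower and passed the filter on low counts through the other. Their calls, which also held with no filter, are thus not independent of it.

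Nap1l5 followed the labels too, from 276, 257 and 266 CPM in RSC to 463, 587 and 583 CPM in LEC cells of projection mice 1, 2 and 3. The groups did not overlap. It fell by 1.03 in RSC cells (SE 0.12, adjusted p = 0.00164 with edgeR). In that comparison 4 of 29 tested were called, where 3.95% of all genes were, the others being Dcn (-4.61), Rasgrf1 (-0.58) and Sfmbt2 (2.87). Dcn and Sfmbt2 rest on few cells, so their calls may not be independent of the filter on low counts. Without projection mouse 2 or 3 all 4 missed the threshold, with adjusted p of 0.0513 and 0.0715 for Nap1l5, 0.0902 and 0.168 for Dcn, 0.0923 and 0.278 for Rasgrf1, and 0.325 and 0.294 for Sfmbt2, and Rasgrf1 did so without projection mouse 1 (0.231). With mouse as a block, Rasgrf1 (0.0514) and Sfmbt2 (0.0999) were not called. Nap1l5 was the 1 of 29 called between RSC and unlabeled cells (-0.65, adjusted p = 0.0255), where 1.63% of all genes were, a call lost without projection mouse 1, 2 or 3 (0.0511, 0.26 and 0.238) and without plate 12 (0.0929). Between LEC and unlabeled cells edgeR called 0 of 29, and DESeq2 and limma 2 each. With edgeR an unadjusted p under 0.05 was found for 5 of the 29 and for 1079 of 13976 genes.

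In Slc30a3-high against all Slc30a3-low cells 0 of 27 were called with edgeR, and 1 each by DESeq2 and limma. With edgeR an unadjusted p under 0.05 was found for 6 of the 27 and for 1910 of 13495 genes. Within Synpr-low cells the 1 of 27 called (0.778% of all genes) was Magel2, a neighbour of Ndn. It had 0 counts in Slc30a3-high cells of all 4 mice, and 2, 16, 15 and 27 counts in double-low cells of the blindly sampled mouse and projection mice 1, 2 and 3. Only 10 of 1011 cells had a count of it. It passed the filter through the double-low sums alone, so its call (adjusted p = 0.0372 with edgeR) is not independent of that filter, and the call was lost with no filter (0.0735), with mouse as a block (0.0521), at a Slc30a3 limit of 50 CPM (0.0506), with limma on the mean log2 CPM per cell (0.0534) and without the blindly sampled mouse (0.094) or projection mouse 2 or 3 (0.32 and 0.273).

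Against Synpr-high cells, 5 of 27 were called in double-low cells (Dcn, Nap1l5, Cd81, Magel2 and Sfmbt2), where 8.97% of all genes were. Dcn and Magel2 passed the filter on low counts through sums other than the Synpr-high ones, and Sfmbt2 through the Synpr-high sums. The calls of these genes are thus not independent of that filter. Nap1l5 held under every alternative run. Magel2 and Cd81 were lost without projection mouse 2 or 3 (0.0752 and 0.122, and 0.0661 and 0.0821), Sfmbt2 without projection mouse 1 or 2 (0.0609 and 0.0862) and at a Synpr limit of 400 CPM (0.0621), and Dcn with limma on the mean log2 CPM per cell (0.192). In Slc30a3-high cells 4 of 27 were called (Dcn, Sfmbt2, Gnas and Nap1l5), where 6.71% of all genes were. The same limit of the filter holds there for Dcn and Sfmbt2. Without projection mouse 1, 2 or 3 Gnas (0.101, 0.0635 and 0.136) and Nap1l5 (0.096, 0.0875 and 0.146) were lost, as were Gnas with limma (0.0913) and Sfmbt2 at the Synpr limit of 400 CPM (0.131), while Dcn held under every alternative run. The 2 comparisons share their Synpr-high sums.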

How the data were processed

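Single-cell libraries of 13 plates from 4 mice were analysed. The authors deposited 2 tables of counts per gene and cell, not normalized, with tables of each cell's animal and label. The methods state that adapters were removed and reads assigned to barcodes and molecular identifiers and aligned with STAR. The submitters' processing notes name the build NCBIM37, and the methods give depth per cell in reads. Whether identifiers were collapsed before counting, or strand was used, is not given in the sources used here. Whole numbers were found in both tables, and spike-ins were left out. Gene models from GENCODE vM21 and RefSeq served for overlaps and promoters only, of which Peg10 and Impact had none in the table used.

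Counts were summed per mouse and class (at least 5 cells) and tested with edgeR 4.0.16 (TMM, filterByExpr, quasi-likelihood F test, Benjamini-Hochberg over all genes, 0.05) in R 4.3.3, with DESeq2 1.42.0 and limma 3.58.1 as alternatives, and Python 3.11.15 with pandas 2.3.3. The first comparison of each fit was also run on simulated counts. These were drawn independently for each sum with no effect of mouse, so that run does not check the pairing. Classes were paired by animal, and deviations from class means correlated within a mouse (median r 0.23 for Synpr, 0.19 for the 3 classes, 0.04 for labels) more than between mice (-0.11, -0.08 and -0.03). Fits without and with mouse as a block were run.

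The members, the 50 other imprinted genes and the limits of Synpr and Slc30a3 were chosen with earlier results of these data known. All members are named, and of the other imprinted genes at most 6 called per comparison, with the 5 genes most like Nnat. Counting covers the 3′ ends of transcripts, so levels were compared within genes. With 3 or 4 mice, p-values rest on the spread between them, and intervals from counts cover counting error only. Comparisons of the 3 classes with Synpr-high cells, of labels within Synpr classes and without plate 12 were added after seeing the data.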

Additional observations from a re-analysis of the deposited data

Results flagged for a closer look

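Over 4 mice, 61 groups (a member in 1 class of a split) were read for a sample far from the other 3, by Dixon's 95% limit, and 13 had one. Chance gives about 1 in 20 such groups, and the groups share cells and mice, so they are not 13 separate results. Of these, 11 were the blindly sampled mouse, whose depth, way of picking cells, tracer, count table and perhaps flow cell cannot be told apart.

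Snrpn was highest in the blindly sampled mouse in all 7 classes read: 657 CPM in Synpr-high and 726 in Synpr-low cells, 685 and 706 CPM in Slc30a3-high and Slc30a3-low cells, and 647, 662 and 799.96 CPM in the Synpr-high, Slc30a3-high and double-low classes fitted together. Ndn was lowest there in Slc30a3-high cells, at 580 CPM over all of them and 588 CPM among Synpr-low cells. Meg3 was lowest there in Slc30a3-high cells, at 4104 CPM. Dlk1, with 0.61 CPM in its Synpr-high cells, was highest there, from 2 counts. Peg3 was highest in the double-low cells of projection mouse 2, at 299 CPM, and Plagl1 lowest in the Slc30a3-high cells of projection mouse 1, at 0 CPM.

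Among members that passed the filter on low counts, the blindly sampled mouse had the opposite sign to all 3 projection mice in 3 cases, on the scale of log2(CPM + 1). Impact in Slc30a3-high minus Synpr-high cells was -0.56 in the blindly sampled mouse, where the projection mice were positive. Dlk1 was -0.69 in both Slc30a3-high and double-low minus Synpr-high cells of that mouse, which rests on those 2 counts. Dlk1 did not pass the filter in the Synpr split, where it too had opposite signs, with Synpr high minus low at 0.70 in that mouse and at -0.13, -2.76 and -2.49 in projection mice 1, 2 and 3. These differences between mice were not tested.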

How the results depend on the processing

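Members other than Nnat that were called numbered 4 in the Synpr split, 1 in the Slc30a3 split, 0 for Slc30a3 within Synpr-low cells, 2 for RSC against LEC, 1 for RSC against unlabeled and 0 for LEC against unlabeled cells. Leaving out 1 mouse gave 1 to 4, 0 to 1, 0 to 1, 0 to 0, 0 to 0 and 0 to 0. For RSC against LEC, DESeq2 called 4 and the fit without plate 12 called 1. For RSC against unlabeled, DESeq2 and limma on the mean log2 CPM per cell each called 2. For Slc30a3 within Synpr-low cells, DESeq2 called 3, the fit with mouse as a block 2 and that without the blindly sampled mouse 1. The block left the number of members called in the other 5 planned comparisons the same. All other alternatives kept these counts within 1.5 times. No called member changed sign under any alternative. The difference of Nnat in the Synpr split was -5.48 from the mean log2 CPM per cell with limma, and from -4.09 to -3.57 otherwise. Counts over all genes moved more: 59 of 150 alternative counts lay beyond 1.5 times. With mouse as a block the calls were 1995 (1203 without) for Synpr, 1044 (493) for Slc30a3 and 267 (102) within Synpr-low cells. DESeq2 called 966 and 374 in the latter pair, 1145 (552 by edgeR) between RSC and LEC cells and 663 (228) between RSC and unlabeled cells, and limma on the mean log2 CPM per cell 236 within Synpr-low cells and 1197 and 882 by label. With 1 mouse left out the counts ranged from 545 to 1581 for Synpr, 108 to 646 for Slc30a3, 12 to 76 within Synpr-low cells, 59 to 391 for RSC against LEC and 8 to 47 for RSC against unlabeled, where thinned cells gave 491 and the fit without plate 12 gave 120. LEC against unlabeled, with 0 calls by edgeR, had 50 with thinned cells, 9 with no filter and 2 with the block or without projection mouse 1. Of the added comparisons, the block gave 1823 (1176) for double-low and 1473 (879) for Slc30a3-high against Synpr-high cells, DESeq2 1326 for the latter and limma 1797 for the former, with 502 to 1314 and 351 to 1048 when 1 mouse was left out. Within Synpr-low cells, RSC against LEC had 24 calls by edgeR and 288 by DESeq2, 61 with no filter, 15 with the block, 12 without plate 12 and 0 to 7 with 1 mouse left out. Within Synpr-high cells 5 were called with no filter. The difference between those classes had 8 calls by edgeR, 113 by DESeq2, 24 with no filter, 3 and 4 at Synpr limits of 100 and 400, 1 with the block and 0 to 1 with 1 mouse left out. The cause was not tested, though leaving out a mouse leaves fewer sums. Plagl1, Dlk1 and Peg10, and of the wider list Sfmbt2, Dcn and Magel2, rest on few cells.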
